A study of Mus musculus with 24 samples.

Results

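Imprinted genes are transcribed mainly from the copy inherited from 1 parent. The account below follows 38 such mouse genes, taken by symbol through their Entrez identifiers from a table of 27179 genes; every one had a row. By the expressed allele known from other mouse tissues, 15 are maternal, 22 are paternal and Gnas has transcripts of both kinds. They lie in 17 imprinted regions on 10 chromosomes, with 16 genes on chromosome 7, 6 on chromosome 6 and 6 on chromosome 12.

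At an imprinted region, DNA methylation laid down in the egg or the sperm marks 1 parental copy, and that mark decides which copy of the neighbouring genes is active. Many of the paternally expressed genes promote growth before birth and many of the maternally expressed ones restrain it, and several of them act on the insulin-like growth factors. For some members (Cd81, Tssc4, Copg2, Ube3a) imprinting is described mainly in placenta, embryo or brain, so the allele given here is a label from the literature. The libraries do not separate the parental copies, and each value is the sum over both.

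Bulk RNA-seq covered 24 libraries of pubertal mammary epithelium, 2 in each of 12 groups. TEBs (terminal end buds, at the advancing front of the ductal tree) and the ducts behind them were microdissected, and Lin- EpCAM+ cells were sorted into a CD29hi basal gate and a CD29lo luminal gate. In Elf5-rtTA-IRES-GFP mice the luminal gate was divided into GFP-positive and GFP-negative cells, and in PR-cre/Rosa26-LSL-eYFP mice into YFP-positive and YFP-negative cells; basal cells were sorted from both models. Elf5 marks the luminal progenitor lineage and PR-cre is driven by the progesterone receptor gene, so GFP-positive and YFP-negative luminal cells are set side by side as one reporter class and GFP-negative and YFP-positive cells as the other. The labels give no age beyond puberty, and nothing in them ties replicates to different animals; p-values therefore reflect variation among these libraries, possibly technical variation.

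The gates matched their markers, given here as sums of CPM (counts per 1e6 counts, with TMM-scaled library sizes). Of the luminal libraries, GFP-positive and YFP-negative ones had 4585 to 61850 CPM summed over 7 progenitor markers and the others 80.76 to 1247. Within each luminal population that sum was lower in TEBs: it ran from 7777 to 8668 in GFP-positive TEBs and from 36410 to 61850 in ducts, from 4585 to 4616 in YFP-negative TEBs and from 12610 to 13140 in ducts, from 89.05 to 143.1 in GFP-negative TEBs and from 467.8 to 1247 in ducts, and from 80.76 to 169.6 in YFP-positive TEBs and from 522 to 865.7 in ducts. In Elf5-model basal cells it was higher in TEBs (908.5 to 1026) than in ducts (261.1 to 276.6). Over 9 hormone-sensing markers GFP-positive and YFP-negative libraries had 399.1 to 1284 and the other luminal ones 6697 to 10960. Of 12 basal markers, the sum ran from 8081 to 35060 in basal libraries and from 534.3 to 4045 in luminal ones. Within the basal gate that sum was lower in TEBs (8081 to 14870) than in ducts (32210 to 35060). A list of 12 proliferation genes summed to between 1200 and 2797 CPM in all TEB libraries, and to between 232.3 and 661.7 in all duct libraries. Among the 24 libraries, 2 stand apart: 12 keratinocyte genes, which mark skin epithelium, summed to 2524 CPM in replicate 2 of the GFP-negative ducts and to 502 CPM in replicate 2 of the YFP-negative TEBs, and to at most 81.3 CPM elsewhere. In bulk samples fewer cells of a type and less RNA per cell cannot be told apart.

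The 4 promoters shown next belong to Mest, Plagl1, Peg3 and Grb10, on whose TEB and duct levels the results below turn. Each window runs from 250 bases before to 50 bases after a RefSeq transcription start of build GRCm38.p6 and is written on the gene's own strand. For Mest the window at the second listed start is given, chr6:30737800-30738099 on the plus strand. Plagl1 is at chr10:13090582-13090881 on the plus strand, Peg3 at chr7:6730370-6730669 on the minus strand and Grb10 at chr11:12037371-12037670 on the minus strand. Capitals mark TGCCGC read on either strand, the core of the motif that the imprint-protecting factor ZFP57 binds when it is methylated.
Mest: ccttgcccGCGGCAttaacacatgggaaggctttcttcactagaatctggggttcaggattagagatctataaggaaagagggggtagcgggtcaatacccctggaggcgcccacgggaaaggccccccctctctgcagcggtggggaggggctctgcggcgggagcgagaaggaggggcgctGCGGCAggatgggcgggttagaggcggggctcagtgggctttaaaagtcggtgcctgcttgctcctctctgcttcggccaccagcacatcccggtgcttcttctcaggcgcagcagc
Plagl1: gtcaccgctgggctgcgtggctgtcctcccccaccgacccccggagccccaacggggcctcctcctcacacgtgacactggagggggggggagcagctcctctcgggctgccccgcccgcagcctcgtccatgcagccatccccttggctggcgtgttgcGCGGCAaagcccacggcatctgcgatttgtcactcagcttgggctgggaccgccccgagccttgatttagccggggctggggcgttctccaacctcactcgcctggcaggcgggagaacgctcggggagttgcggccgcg
Peg3: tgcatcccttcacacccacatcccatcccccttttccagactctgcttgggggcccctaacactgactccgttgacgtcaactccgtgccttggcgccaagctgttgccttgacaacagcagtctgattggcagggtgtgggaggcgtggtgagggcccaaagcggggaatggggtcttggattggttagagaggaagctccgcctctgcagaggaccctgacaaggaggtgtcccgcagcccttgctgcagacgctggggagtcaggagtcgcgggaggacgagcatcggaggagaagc
Grb10: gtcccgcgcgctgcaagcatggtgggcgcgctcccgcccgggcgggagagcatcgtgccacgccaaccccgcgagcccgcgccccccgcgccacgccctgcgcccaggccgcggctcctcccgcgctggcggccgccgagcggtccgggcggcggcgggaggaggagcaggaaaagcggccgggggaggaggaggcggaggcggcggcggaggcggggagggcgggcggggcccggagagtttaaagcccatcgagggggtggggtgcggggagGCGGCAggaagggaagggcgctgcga
The Mest, Plagl1 and Grb10 windows shown hold the motif, and the letters are not in the Peg3 window. Other listed starts of these genes differ: the first Mest window and the second Grb10 window hold 0 matches. TGCCGC is held by 11.61% of the 32851 promoter windows that RefSeq gives, and of 45 windows at 31 members 24.44% do (11 windows). The median window held 15 CpG dinucleotides at the members and 7 over all windows. The Peg3 window overlaps that of Usp29, which starts on the opposite strand, by 263 bases. A match is a description of the letters and shows no binding.

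Of the 38 members, 35 passed the filter on low counts and were tested. Usp29 (50 counts over all libraries), Magel2 (1 count) and Snrpn (1 count) were not. Other annotated genes share 21.9% of the exonic bases of Snrpn, among them Snurf on the same strand, which had 0 counts. How reads in shared exons were counted is not given, so the Snrpn count need not mean a silent gene. Together the 38 genes took between 0.21% and 0.28% of all counts in basal TEBs, between 0.14% and 0.16% in basal ducts and between 0.13% and 0.21% in luminal libraries. Relative to transcript length, Mest was the highest member in basal TEBs at 169 ± 90.1 CPM per kilobase (SD, n = 4), followed by Gnas, which encodes the stimulatory G protein subunit, at 142 ± 4.28. In basal ducts Mest ranked number 10 at 9.07 ± 3.62 CPM per kilobase, and Gnas ranked number 1 at 123 ± 10.6. Cd81, a tetraspanin membrane protein, was the highest member per kilobase in luminal TEBs (157 ± 95.7, n = 8) and luminal ducts (253 ± 194, n = 8).

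**Figure D1:**
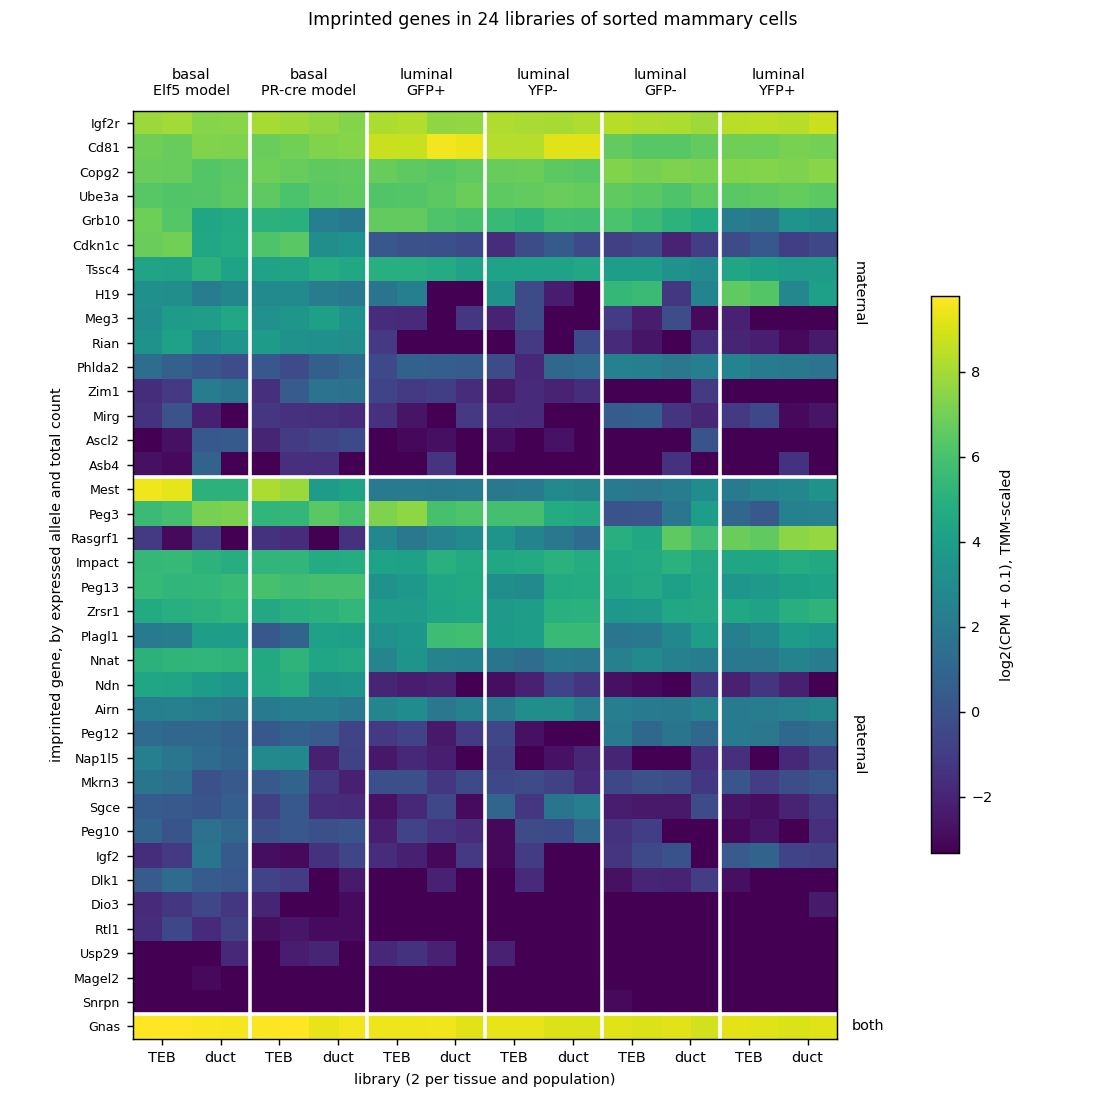
Level of each of the 38 imprinted genes in each of the 24 libraries, as log2(CPM + 0.1) by colour, with genes in rows grouped by expressed allele and libraries in columns grouped by population, TEB left of duct. Mest, Cdkn1c, Ndn, Meg3 and Rian are each brighter in every one of the 8 basal libraries than in any of the 16 luminal ones, with the gap narrowest for Mest (at least 14.7 CPM in basal and up to 10.2 in luminal libraries), while Rasgrf1 is brightest in GFP-negative and YFP-positive luminal libraries.

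In basal cells, genes of opposite parental origin rose together in TEBs. Mest, Cdkn1c, Grb10, Igf2r and Impact were called higher in TEBs than in ducts in both mouse models, and Plagl1 and Cd81 were called lower in both, by edgeR's quasi-likelihood test at an adjusted p under 0.05. The calls of Mest, Cdkn1c, Grb10 and Plagl1 in single models held under all 32 alternatives. Of these alternatives, 24 each left out 1 library, and only 4 of those libraries belong to any contrast within 1 population. The Igf2r calls were lost in 1 (Elf5 model) and 2 (PR-cre model) alternatives and the Cd81 calls in 3 and 1, each without 1 library. The Impact call was lost in 8 alternatives in the Elf5 model, among them RLE scaling and DESeq2 (adjusted p of up to 0.222), and without any 1 of its 4 libraries in the PR-cre model (up to 0.124). In the Elf5 model 6 of 35 members were called higher and 4 lower, which is 28.6% of them, against 36.4% of all 18109 genes tested (17.2% higher, 19.2% lower). In the PR-cre model 7 were called higher and 2 lower, or 25.7%, against 24.7% of all genes (12% higher, 12.7% lower). Over both models averaged, 9 were called higher and 7 lower, or 45.7%, against 43.6% of all genes (20.9% higher, 22.8% lower). The members were thus called about as often as other genes. Of the 9, 4 are maternal, 4 are paternal and 1 is Gnas; of the 7, 3 are maternal and 4 are paternal. The median log2 fold change over the tested members was 0.147 in the Elf5 model and 0.347 in the PR-cre model, against -0.0585 and 0 over all genes.

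Mest, a paternally expressed gene of embryonic mesoderm that encodes a hydrolase-fold protein, had the largest well-counted change. It reached 729 and 636 CPM in Elf5-model basal TEBs, against 33.9 and 33.6 in their ducts, and 289 and 224 CPM in PR-cre-model basal TEBs, against 14.7 and 18.5 in their ducts. Every TEB library was above every duct library. The log2 fold change was 4.34 ± 0.26 (SE) in the Elf5 model (adjusted p = 1.49e-08) and 3.95 ± 0.25 in the PR-cre model (adjusted p = 8.19e-08). Mest shares 32.9% of its exonic bases with Copg2 on the other strand, and the TruSeq v2 kit does not mark strand, so reads from the shared stretch cannot be assigned. Copg2, which encodes a coat subunit of transport vesicles, had 112, 106, 119 and 108 CPM in the 4 basal TEB libraries, against 76.5, 86.7, 92.3 and 95.9 in ducts, and its mean log2 fold change was 0.35 ± 0.08 (adjusted p = 0.00142).

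Among the maternally expressed restrainers of growth, Cdkn1c and Grb10 rose in basal TEBs. Cdkn1c encodes the cyclin-dependent kinase inhibitor p57. It had 112 and 129 CPM in Elf5-model TEBs and 72.9 and 86.3 in PR-cre-model TEBs, against 23.1 and 26.8 in Elf5-model ducts and 8.70 and 10.6 in PR-cre-model ducts, without overlap. The log2 fold changes were 2.27 ± 0.33 (adjusted p = 6.67e-05) and 3.05 ± 0.35 (adjusted p = 1.15e-05). The proliferation sums given above moved the same way in the same libraries; their part in this result was not tested. Of the exonic bases of Cdkn1c, 30.3% overlap an annotated gene on the opposite strand.

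Grb10 encodes an adaptor that damps signalling by the insulin and insulin-like growth factor receptors. It had 118 and 79.5 CPM in Elf5-model basal TEBs, against 21.0 and 26.1 in ducts, and 34.0 and 31.5 CPM in PR-cre-model TEBs, against 4.94 and 3.81 in ducts. TEBs were above ducts within each model, and the Elf5 model was above the PR-cre model in both tissues. The log2 fold change was 2.07 ± 0.21 in the Elf5 model (adjusted p = 1.75e-06) and 2.90 ± 0.22 in the PR-cre model (adjusted p = 2.78e-07). Igf2r, the receptor that takes up IGF2 for degradation, had 229, 254, 265 and 243 CPM in the 4 basal TEB libraries, against 168, 173, 201 and 162 in ducts. Its change was smaller, with a mean log2 fold change of 0.49 ± 0.09 (adjusted p = 0.000296), and the groups did not overlap. Airn, the paternal antisense RNA that silences Igf2r on the same chromosome, had 4.26 to 5.20 CPM in basal TEBs and 3.58 to 4.85 in basal ducts, with a mean log2 fold change of 0.19 ± 0.25 (adjusted p = 0.585).

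Smaller or less well counted members also rose in basal TEBs. Impact, an inhibitor of the stress kinase GCN2, had 42.0, 43.6, 38.8 and 39.5 CPM in TEBs, against 35.3, 28.4, 26.3 and 27.8 in ducts, and its mean log2 fold change was 0.48 ± 0.11 (adjusted p = 0.00188). Gnas had 870, 882, 823 and 868 CPM in TEBs, against 803, 780, 656 and 744 in ducts (mean log2 fold change 0.21 ± 0.08, adjusted p = 0.0358). The Gnas groups do not overlap, but the call was lost in 6 of 32 alternative fits, among them DESeq2. Mkrn3, a ring-finger ubiquitin ligase, had 3.32, 2.65, 1.16 and 1.75 CPM in TEBs, against 0.859, 1.19, 0.340 and 0.120 in ducts, and its mean log2 fold change was 2.10 ± 0.49 (adjusted p = 0.00216). Nap1l5, related to nucleosome assembly proteins, had 4.87, 3.44, 7.19 and 6.92 CPM in TEBs, against 2.28, 1.76, 0.123 and 0.511 in ducts (2.75 ± 0.98, adjusted p = 0.0329). The Mkrn3 groups overlap across models but not within one, and the Nap1l5 call was lost in 8 of 32 alternatives, with an adjusted p of up to 0.122.

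The members that fell in basal TEBs include 3 zinc-finger genes, Plagl1, Peg3 and Zim1. Plagl1, a paternally expressed zinc-finger transcription factor also known as Zac1, had 4.04 and 4.38 CPM in Elf5-model TEBs and 1.06 and 1.75 in PR-cre-model TEBs, against 16.2 and 16.5 in Elf5-model ducts and 18.2 and 17.1 in PR-cre-model ducts. TEB and duct values lie far apart. The log2 fold change was -1.95 ± 0.30 (adjusted p = 8.22e-05) in the Elf5 model and -3.66 ± 0.32 (adjusted p = 9.12e-07) in the PR-cre model. Peg3, a paternally expressed zinc-finger protein, had 48.5, 58.9, 39.5 and 40.2 CPM in basal TEBs, against 135, 147, 85.5 and 62.3 in ducts. Every TEB library was below every duct library, and the mean log2 fold change was -1.14 ± 0.29 (adjusted p = 0.00573). Its maternally expressed zinc-finger neighbour Zim1 had 0.225, 0.346, 0.256 and 1.26 CPM in TEBs, against 4.57, 3.31, 3.12 and 2.85 in ducts, again without overlap (-2.88 ± 0.77, adjusted p = 0.00767).

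Cd81 had 123, 108, 109 and 126 CPM in basal TEBs, against 157, 150, 159 and 168 in ducts, with a mean log2 fold change of -0.44 ± 0.08 (adjusted p = 0.000185). Zrsr1, a splicing factor gene, had 26.0, 31.1, 23.8 and 30.5 CPM in TEBs, against 33.7, 40.1, 33.8 and 40.5 in ducts (-0.41 ± 0.12, adjusted p = 0.00806). Neither gene's groups overlap, and the Zrsr1 call was lost without any 1 of 4 basal libraries, with an adjusted p of up to 0.0807. Tssc4, which takes part in assembling the splicing machinery, had 20.0, 18.6, 18.4 and 20.4 CPM in TEBs, against 34.5, 19.5, 27.8 and 23.4 in ducts. Its groups overlap, and the call (-0.44 ± 0.16, adjusted p = 0.0319) was lost in 14 of 32 alternatives. Igf2, the growth factor itself, was close to the limit of counting, and other annotated genes share 70.4% of its exonic bases. It had 0.225, 0.371, 0.0394 and 0.0243 CPM in TEBs, against 3.36, 1.22, 0.278 and 0.571 in ducts. It was called over the basal mean but in neither basal model alone. TEB libraries were lower than duct libraries within each model, the mean log2 fold change was -3.26 ± 1.09 (adjusted p = 0.0232), and the call was lost without any 1 of 6 of the 8 basal libraries (adjusted p of up to 0.0862).

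**Figure D2:**
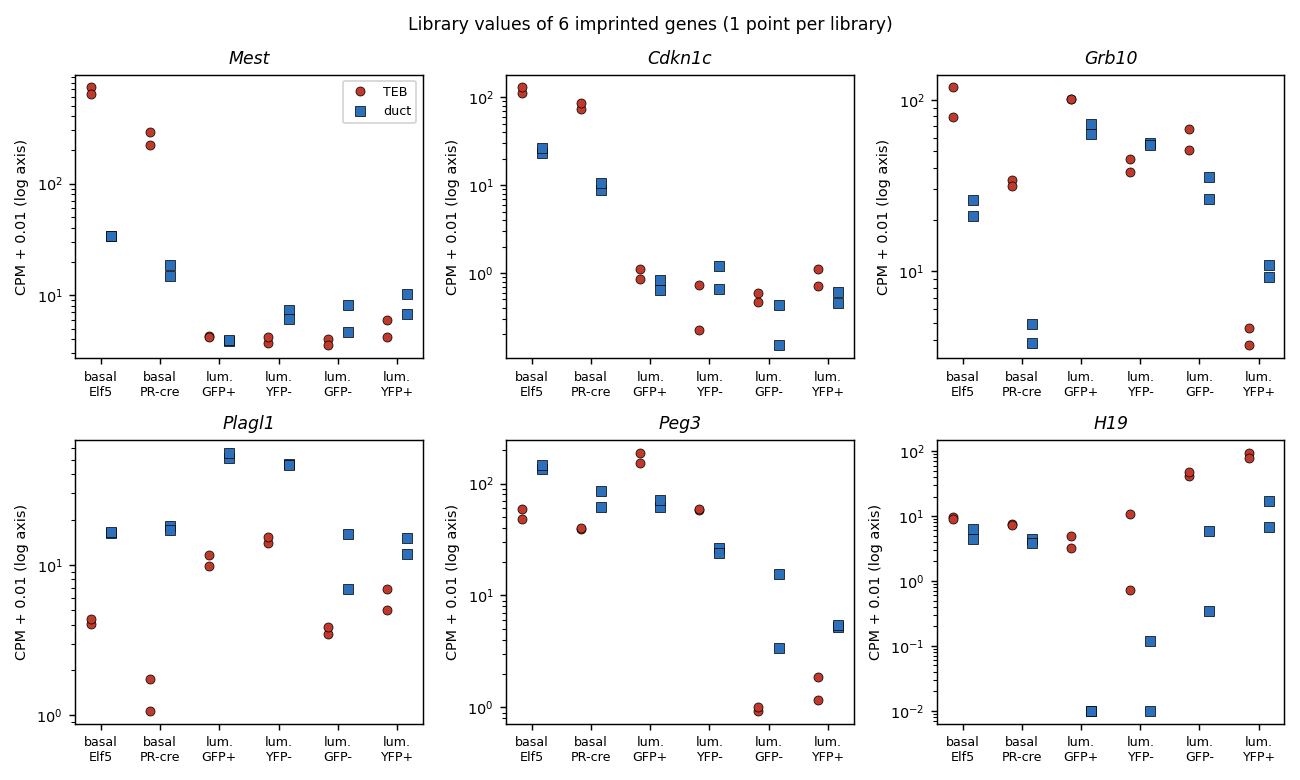
Level of Mest, Cdkn1c, Grb10, Plagl1, Peg3 and H19 in each library, as CPM + 0.01 on a log axis, with 1 point per library and TEB (circles) left of duct (squares) in each of 6 populations. Plagl1 is lower in TEBs in every population, Mest and Cdkn1c are high in basal TEBs, and Peg3 is higher in TEBs in GFP-positive and YFP-negative luminal cells and lower in the other 4 populations.

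Fibroblasts express many imprinted genes, and their markers were present in the basal gate. All 12 fibroblast markers had counts in every basal library, and they summed to 1064 and 778.9 CPM in Elf5-model TEBs and 751.5 and 1701 in PR-cre-model TEBs, against 1541 and 1161 in Elf5-model ducts and 878.4 and 1008 in PR-cre-model ducts. The TEB and duct ranges of the sum overlap, and its genes did not move alike. Fbn1 averaged 384 CPM in basal TEBs and 595 in ducts, whereas Col3a1 averaged 269 and Col1a1 114 CPM in TEBs, against 175 and 70.8 in ducts, and Lum averaged 15.8 CPM in TEBs and 6.54 in ducts. Sums over 12 immune markers ran from 4.87 to 9.11 CPM in basal TEBs and from 17.01 to 38.7 in ducts. Sums over 10 adipocyte markers ran from 10.9 to 21.2 CPM in basal TEBs and from 43.1 to 90.0 in ducts. Neither sum overlapped between tissues. The adipocyte genes did not move alike. Plin4 averaged 3.27 CPM in basal TEBs and 28.4 in ducts, Fabp4 averaged 3.896 and 15.4, and Lep averaged 0.73 and 12.5. Plin1 and Cfd were lower in TEBs as well, with few counts. Adipoq, Cidec, Car3, Retn and Lipe averaged more in basal TEBs than in ducts. The part of fibroblasts, immune cells and adipocytes in the basal changes was not tested. In luminal libraries the fibroblast sum ran from 16.6 to 177 CPM.

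Averaged over the 4 luminal populations, 5 of 35 members were called higher in TEBs and 8 lower, or 37.1%, against 38.7% of all genes tested (20% higher, 18.6% lower). By allele, 4 of the 5 higher are maternal (H19, Mirg, Igf2r and Tssc4). Of the 8 lower, 7 are paternal (Plagl1, Peg3, Mest, Sgce, Impact, Zrsr1 and Peg13). Peg12 is paternal and higher, and Cd81 is maternal and lower. Of 15 maternal and 19 paternal members tested, 33.3% and 42.1% were called in either direction. A link of direction to allele was not tested. The calls of Peg3, Igf2r, Sgce and Tssc4 depend on the libraries with keratinocyte transcripts, as given below. Of the 13 members called over the luminal mean, 8 were also called over the basal mean. That is 61.5% of the luminal and 50% of the 16 basal calls. Over these means Igf2r was higher in TEBs in both compartments, and Plagl1, Peg3, Zrsr1 and Cd81 were lower in both. Mest, Impact and Tssc4 had opposite directions. The luminal mean of Peg3 averages higher TEB values in GFP-positive and YFP-negative cells and lower ones in the other class, as given below. The progenitor sums given above were lower in TEBs than in ducts in all 4 luminal populations, and their part in these changes was not tested. In single populations, 4 were called higher and 5 lower in GFP-positive cells (25.7%, against 22.8% of all genes, 11.8% higher and 10.9% lower). In YFP-negative cells 3 were higher and 6 lower (25.7%, against 18.4%, with 10.5% higher and 7.97% lower). In GFP-negative cells 4 were higher and 4 lower (22.9%, against 18.5%, with 8.85% higher and 9.65% lower). In YFP-positive cells 0 were higher and 4 lower by edgeR (11.4%, against 7.86%, with 4.61% higher and 3.25% lower); 2 were higher at an unadjusted p under 0.05, 0 by DESeq2 and 1 by limma voom. The GFP-negative ducts and the YFP-negative TEBs each hold 1 of the libraries with keratinocyte transcripts. Without these 2 libraries, Tssc4, Mest and Peg10 were no longer called in GFP-negative cells, Phlda2 and Copg2 in YFP-negative cells, and Peg3, Igf2r, Sgce and Tssc4 over the luminal mean.

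Plagl1 was the only member called lower in TEBs in all 6 populations. It had 9.84 and 11.6 CPM in GFP-positive TEBs, against 51.6 and 55.5 in ducts, and 14.0 and 15.3 CPM in YFP-negative TEBs, against 46.6 and 45.7 in ducts. In the other class it had 3.46 and 3.87 CPM in GFP-negative TEBs, against 6.94 and 16.0 in ducts, and 4.97 and 6.94 CPM in YFP-positive TEBs, against 15.2 and 11.8 in ducts. TEB and duct values did not overlap within any population, and the YFP-positive call was lost in 2 of 32 alternatives (adjusted p of up to 0.213). In GFP-negative cells the log2 fold change was -1.64 ± 0.30 (adjusted p = 0.00153), and -0.92 (adjusted p = 0.0239) without the 2 libraries with keratinocyte transcripts, of which the duct library of 16.0 CPM is 1. The luminal mean log2 fold change was -1.70 ± 0.15 (adjusted p = 2.39e-07). Averaged over both basal models the fall was steeper (basal minus luminal TEB effect -1.11 ± 0.25, adjusted p = 0.00358). The Elf5-model basal fall given above was close to the luminal mean, and the PR-cre model had the steeper one. That difference between the basal models was not called.

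Zrsr1 was called lower in all 4 luminal populations, with the GFP-positive call lost in 3 and the YFP-positive call in 2 of 32 alternatives (adjusted p of up to 0.151 and 0.184). It had 14.5 and 15.2 CPM in GFP-positive TEBs, against 20.2 and 22.8 in ducts; 13.3 and 15.9 in YFP-negative TEBs, against 32.2 and 33.3; 12.6 and 13 in GFP-negative TEBs, against 22.2 and 24; and 22.7 and 18.7 in YFP-positive TEBs, against 29.6 and 36.5. Within each population the TEB values were the lower ones, and the mean log2 fold change was -0.81 ± 0.08 (adjusted p = 1.43e-06). The noncoding RNA Peg13 had 10.1 and 12.4 CPM in GFP-positive TEBs, against 20.4 and 24.8 in ducts, and 9.01 and 7.36 CPM in YFP-negative TEBs, against 25.5 and 27.1 in ducts. In GFP-negative cells it had 20.0 and 24.1 CPM in TEBs, against 16.7 and 22.8 in ducts, and in YFP-positive cells 11.8 and 13.3 CPM in TEBs, against 17.3 and 19.3 in ducts. Its fall was larger in the GFP-positive and YFP-negative class than in the other, by -1.15 ± 0.17 on the log2 scale (adjusted p = 0.000378), and only GFP-negative values overlap.

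H19, the maternally expressed noncoding RNA next to Igf2, was called higher in TEBs in 3 of the 4 luminal populations and over their mean (adjusted p = 0.000121). It had 41.6 and 48.0 CPM in GFP-negative TEBs, against 0.336 and 5.97 in ducts, and 94.7 and 77.7 CPM in YFP-positive TEBs, against 6.72 and 17 in ducts. It had 3.16 and 4.98 CPM in GFP-positive TEBs, against 0 counts in both ducts, which is at least 103-fold higher when the ducts are set to 3 counts over the group; YFP-negative TEBs had 10.7 and 0.712 CPM, against 0.108 and 0 in ducts. No luminal population overlaps between tissues, although replicates differ widely. The log2 fold change was 3.83 ± 1.11 in GFP-negative cells (adjusted p = 0.0319) and 2.87 ± 1.04 in YFP-positive cells, which did not pass (adjusted p = 0.125). The YFP-negative call (6.55 ± 1.70, adjusted p = 0.0185) was lost without 3 of its 4 libraries and by limma voom, and the GFP-negative call without any of 3 of its libraries, with adjusted p of up to 0.237 and 0.104; the GFP-positive call was lost by limma voom and without either duct library (adjusted p of up to 0.085). Without the libraries with keratinocyte transcripts the change was 7.04 in GFP-negative cells (adjusted p = 3.81e-05) and 7.43 in YFP-negative cells (adjusted p = 2.1e-05). In basal cells H19 had 9.61, 8.96, 7.53 and 7.24 CPM in TEBs, against 4.39, 6.41, 4.48 and 3.90 in ducts, a log2 difference of 0.80 ± 0.72 (adjusted p = 0.405).

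Most other members called higher in luminal TEBs had few counts. Mirg, a maternal noncoding RNA of the Dlk1-Meg3 region, had 1.31 and 1.42 CPM in GFP-negative TEBs, against 0.308 and 0.168 in ducts; 0.374 and 0.623 in YFP-positive TEBs, against 0.0249 and 0.0600; 0.234 and 0.211 in YFP-negative TEBs, against 0 and 0; and 0.270 and 0.0610 in GFP-positive TEBs, against 0 and 0.348. It was called over the luminal mean (adjusted p = 0.00804) and in no single luminal population. Peg12, related to regulators of the kinase GSK3, had 30 counts in YFP-negative TEBs (0.596 and 0.0527 CPM), against 0 in ducts, a difference of at least 8-fold, which rests on the higher of these 2 libraries. It had 4.08 and 2.03 CPM in GFP-negative TEBs, against 3.30 and 1.96 in ducts; 4.12 and 3.60 in YFP-positive TEBs, against 2.07 and 2.43; and 0.347 and 0.529 in GFP-positive TEBs, against 0.0889 and 0.380. Peg10, a retrotransposon-derived gene, had 31 counts in GFP-negative TEBs and 0 in ducts, a difference of at least 8.7-fold. Tssc4 ran from 15.7 to 30.5 CPM with a median of 19.4 in luminal TEBs, and from 7.85 to 26.4 with a median of 16.8 in luminal ducts (0.37 ± 0.11, adjusted p = 0.0144), with overlap. Fitted fold changes against groups at 0 depend on the prior count and are not given for these populations.

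Mest and Impact changed in opposite directions in the basal and luminal compartments. Mest had 4.28 and 4.21 CPM in GFP-positive TEBs, against 3.85 and 3.96 in ducts; 3.68 and 4.19 in YFP-negative TEBs, against 7.26 and 6.08; 4.0 and 3.52 in GFP-negative TEBs, against 4.67 and 8.22; and 4.20 and 6.02 in YFP-positive TEBs, against 6.79 and 10.2. In 3 of the 4 populations TEBs were below ducts, and the mean log2 fold change was -0.54 ± 0.13 (adjusted p = 0.00269). The calls in single populations (YFP-negative and GFP-negative) were lost in 10 and 19 of 32 alternatives. Impact ran from 18.3 to 25.7 CPM with a median of 22.4 in the 8 luminal TEB libraries, and from 24.3 to 33.5 with a median of 27.8 in the 8 ducts. Its mean log2 fold change was -0.36 ± 0.08 (adjusted p = 0.00149). The basal minus luminal difference of the TEB effect was 4.68 ± 0.21 for Mest (adjusted p = 4.97e-10) and 0.84 ± 0.13 for Impact (adjusted p = 0.000187).

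Over all members, 6 had a TEB effect that was higher in basal than in luminal cells and 4 a lower one, or 28.6%, against 26.3% of all genes tested (11.4% higher, 14.9% lower). Besides Mest and Impact, the difference was 2.53 ± 0.18 for Grb10 (adjusted p = 4.67e-08), 2.40 ± 0.33 for Cdkn1c (adjusted p = 5.18e-05) and 0.72 ± 0.14 for Peg13 (adjusted p = 0.00136). Cdkn1c had 0.213 to 1.11 CPM in luminal TEBs and 0.140 to 1.19 in luminal ducts, and was called in no luminal population. Sgce, encoding epsilon-sarcoglycan, was the sixth, with few counts; it ran from 0.0461 to 1.81 CPM in luminal TEBs and from 0.0317 to 4.85 in luminal ducts. Its medians were 0.0950 CPM in luminal TEBs and 0.465 in luminal ducts, its luminal mean was -1.85 ± 0.57 (adjusted p = 0.0161), and its call of the difference (2.81 ± 0.94, adjusted p = 0.0353) was lost in 16 of 32 alternatives.

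**Figure D3:**
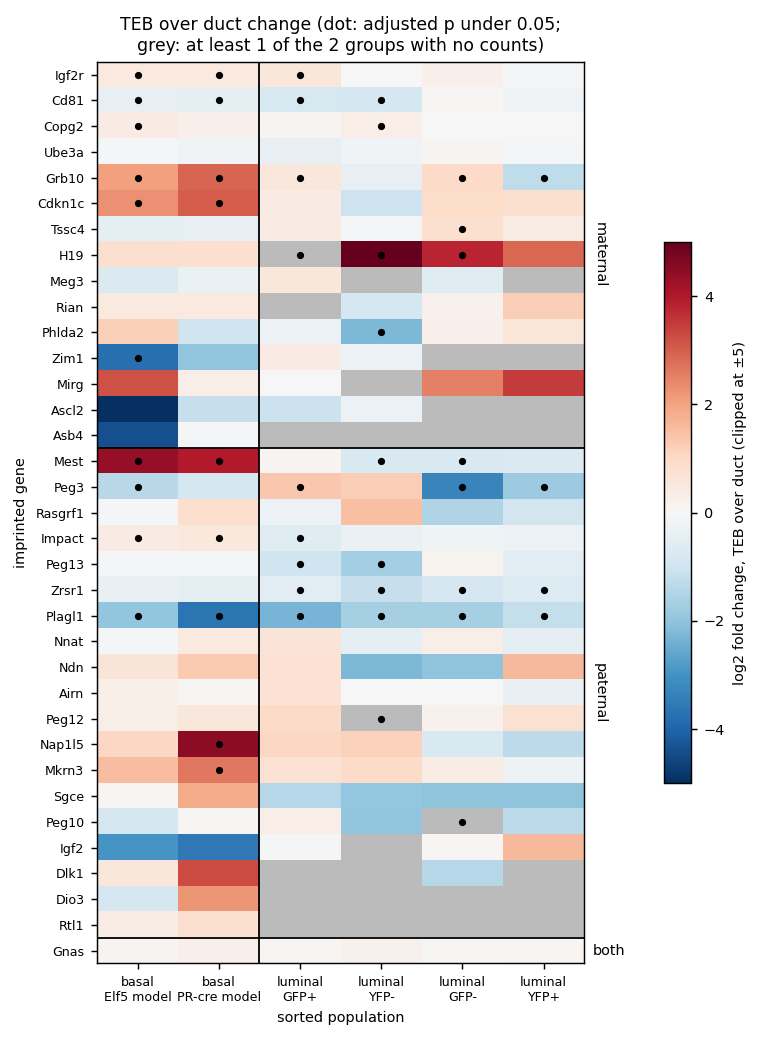
The log2 fold change of TEB over duct (colour, clipped at ±5) for the 35 tested imprinted genes in rows and 6 sorted populations in columns, with a dot where the adjusted p is under 0.05 and grey where at least 1 of the groups has no counts. Plagl1 carries a dot in all 6 columns, and Mest, Cdkn1c and Grb10 carry dots on positive colours in both basal columns.

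Peg3 moved in opposite directions in the luminal classes. It had 153 and 189 CPM in GFP-positive TEBs, against 62.0 and 71.9 in ducts, and 57.6 and 59.6 CPM in YFP-negative TEBs, against 26.3 and 23.9 in ducts. In the other class it had 0.922 and 1.01 CPM in GFP-negative TEBs, against 3.42 and 15.5 in ducts, and 1.87 and 1.15 CPM in YFP-positive TEBs, against 5.25 and 5.46 in ducts. TEBs were above ducts in the first pair and below them in the second, without overlap in any population. The log2 fold change was 1.35 ± 0.42 in GFP-positive cells (adjusted p = 0.0315) and 1.22 ± 0.42 in YFP-negative cells (adjusted p = 0.0582), and -3.29 ± 0.51 in GFP-negative cells (adjusted p = 0.000894) and -1.82 ± 0.49 in YFP-positive cells (adjusted p = 0.0352). The GFP-positive call was lost in 4 and the YFP-positive call in 8 of 32 alternatives, with adjusted p of up to 0.152 and 0.233. The mean over all 4 populations (-0.63 ± 0.23, adjusted p = 0.0406) averages these opposite changes, and its call was lost in 18 of 32 alternatives. The difference between the classes was 3.84 ± 0.46 (adjusted p = 0.00017). The GFP-negative duct library with 15.5 CPM is the one with the highest keratinocyte sum; without the libraries with keratinocyte transcripts the GFP-negative change was -1.82 (adjusted p = 0.000453) and the difference between classes 3.11 (adjusted p = 2.33e-07).

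Across members, 1 TEB effect was called higher and 2 lower in the GFP-positive and YFP-negative class than in the other, or 8.57%, against 10.6% of all genes (4.93% higher, 5.68% lower). Beside Peg3 and Peg13 the third is Cd81. It had 424 and 408 CPM in GFP-positive TEBs, against 756 and 687 in ducts, and 323 and 325 CPM in YFP-negative TEBs, against 593 and 584 in ducts. It had 101 and 84.4 CPM in GFP-negative TEBs, against 82.0 and 97.9 in ducts, and 123 and 120 CPM in YFP-positive TEBs, against 142 and 133 in ducts. Cd81 fell in the first class and its values in the second lie close together; the difference was -0.76 ± 0.11 (adjusted p = 0.000316).

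Grb10 did not follow the classes. It had 101 and 101 CPM in GFP-positive TEBs, against 72.6 and 63.0 in ducts (log2 fold change 0.57 ± 0.20, adjusted p = 0.0493). That call was lost in 21 of 32 alternatives, with an adjusted p of up to 0.29. Grb10 had 45.1 and 37.9 CPM in YFP-negative TEBs, against 56.2 and 54.4 in ducts (-0.42 ± 0.20, adjusted p = 0.169). It had 67.5 and 50.9 CPM in GFP-negative TEBs, against 35.2 and 26.4 in ducts (0.94 ± 0.20, adjusted p = 0.00493), and 4.64 and 3.69 CPM in YFP-positive TEBs, against 10.9 and 9.27 in ducts (-1.28 ± 0.22, adjusted p = 0.00197). TEBs were the higher tissue in both luminal populations of the Elf5 model and the lower one in both of the PR-cre model. The GFP-negative minus YFP-positive difference of the TEB effect was 2.22 ± 0.30 (adjusted p = 0.0065), and it was the only member called there, where 0.0884% of all genes were called higher. Without replicate 2 of the YFP-positive TEBs its adjusted p was 0.0543. Over the 8 libraries of each tissue, Igf2r ran from 278 to 356 CPM with a median of 305 in luminal TEBs, and from 194 to 421 with a median of 281 in luminal ducts (0.19 ± 0.06, adjusted p = 0.0231), with overlap and with the call lost in 11 of 32 alternatives. It was called higher in GFP-positive TEBs, with 286 and 306 CPM, against 194 and 201 in ducts (0.58 ± 0.13, adjusted p = 0.00374), and in no other luminal population.

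The mouse models also differed in level. Between basal cells of the Elf5 model and those of the PR-cre model, over both tissues, 5 members were called higher and 1 lower (17.1%, against 9.98% of all genes, 4.54% higher and 5.44% lower). The 5 are Grb10 (log2 2.01 ± 0.15), Mkrn3 (1.59 ± 0.48), Mest (1.22 ± 0.16), Cdkn1c (0.99 ± 0.23) and Plagl1 (0.74 ± 0.21), and Peg13 was lower (-0.50 ± 0.12). The calls of Mkrn3, Plagl1, Cdkn1c and Peg13 were lost in 20, 9, 3 and 1 of 32 alternatives. In the TEB effect itself, no member was called as different between the basal models by edgeR; 3 had an unadjusted p under 0.05, and 0.994% of all genes were called (0.508% higher, 0.486% lower). Likewise no member was called as different in TEB effect between GFP-positive and YFP-negative luminal cells, where 8 were higher and 4 lower at an unadjusted p under 0.05 and 1.13% of all genes were called (0.464% higher, 0.668% lower). The model, its mice and their preparation cannot be told apart.

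More members were called between compartments than between tissues. Between basal and luminal cells, 23 of 35 members were called higher and 8 lower, or 88.6%, against 67.7% of all genes tested (35.5% higher, 32.2% lower). Of the paternal members 15 of 19 were higher and 2 lower; of the maternal members 7 of 15 were higher and 6 lower. Ndn, a growth-restraining member of the MAGE family, ran from 10.2 to 28.2 CPM with a median of 17.1 in the 8 basal libraries, and from 0 to 0.513 with a median of 0.128 in the 16 luminal ones. The groups do not overlap, and the log2 fold change was 7.15 ± 0.32 (adjusted p = 3.64e-12). Nnat, encoding the small membrane protein neuronatin, ran from 21.1 to 40.1 CPM with a median of 35.6 in basal cells, and from 2.51 to 11.1 with a median of 4.86 in luminal ones (2.68 ± 0.11, adjusted p = 4.23e-13). Peg13 ran from 39.1 to 63.1 CPM with a median of 50.1 in basal cells, and from 7.36 to 27.1 with a median of 18.3 in luminal ones (1.61 ± 0.07, adjusted p = 1.17e-12).

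Of the noncoding RNAs of the Dlk1-Meg3 region, Meg3 and Rian were higher in basal cells as well, and Mirg was not called (log2 0.71 ± 0.55, adjusted p = 0.275). Meg3 ran from 8.56 to 23.4 CPM with a median of 13.6 in basal libraries, and from 0 to 0.756 with a median of 0.121 in luminal ones. Rian, the host of many small nucleolar RNAs, ran from 8.15 to 17.8 CPM with a median of 10.1 in basal libraries, and from 0 to 0.679 with a median of 0.0778 in luminal ones. Neither Meg3 nor Rian overlapped between compartments, and both were called (adjusted p = 4.25e-08 and 1.28e-07). The protein-coding genes of that region were near the limit: Dlk1, a Notch-like membrane protein, averaged 0.872 ± 0.776 CPM in basal and 0.0721 ± 0.117 in luminal cells (SD, n = 8 and 16), and Rtl1, a retrotransposon-derived gene, averaged 0.209 ± 0.220 in basal cells and had 0 counts in luminal ones. A count of 3 corresponds to between 0.057 and 0.096 CPM. The fibroblast sums, which ran from 751.5 to 1701 CPM in basal libraries and from 16.6 to 177 in luminal ones, moved with this contrast, and their part in it was not tested.

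Members higher in luminal cells were fewer. Rasgrf1, an activator of Ras, ran from 0 to 0.393 CPM in basal cells, with a median of 0.244, and from 2.30 to 208 with a median of 16.5 in luminal cells (log2 -6.70 ± 0.40, adjusted p = 1.32e-09). Plagl1 averaged 9.90 ± 7.68 CPM in basal and 20.0 ± 18.4 in luminal cells (-1.10 ± 0.13, adjusted p = 8.72e-07). Cd81, Igf2r, Grb10, Copg2, Phlda2 and Ube3a, all labelled maternal, were lower in basal cells by between 0.16 and 0.76 on the log2 scale. For Cd81, Phlda2 and Plagl1 the luminal mean joins unlike classes. By the library values given above, basal Cd81 overlapped the GFP-negative and YFP-positive class and was below the other class alone. Plagl1 in basal ducts was above GFP-negative and YFP-positive ducts and below the other luminal ducts. Phlda2 was lower in GFP-positive and YFP-negative cells than in the other class, as given below. The Ube3a call was lost in 11 of 32 alternatives. For Grb10 the contrast averages unlike tissues. In ducts it averaged 2.71 ± 2.18 CPM per kilobase in basal and 7.95 ± 4.67 in luminal cells (SD, n = 4 and 8). In TEBs its mean was the higher one in basal cells, at 12.7 ± 7.99, against 9.97 ± 7.27 in luminal cells.

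**Figure D4:**
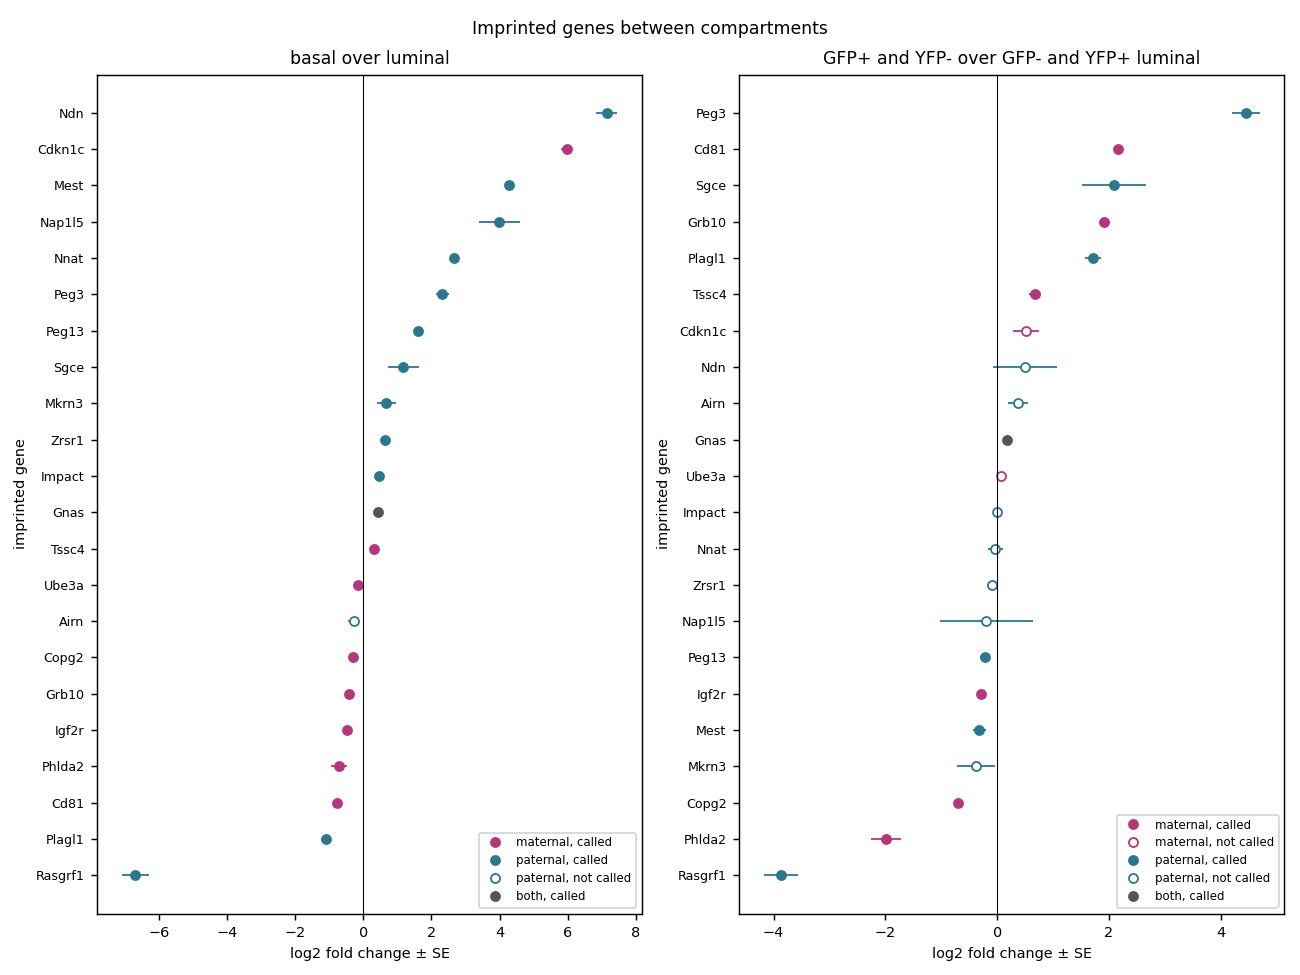
Log2 fold change ± SE of imprinted genes for basal over luminal cells (left) and for GFP-positive and YFP-negative over GFP-negative and YFP-positive luminal cells (right), 1 point per gene, coloured by expressed allele and filled where the adjusted p is under 0.05; genes with a compared group at 0 counts are left out. Ndn (7.15) and Cdkn1c (5.98) lead the left panel and Rasgrf1 (-6.70) ends it, while Peg3 (4.45) leads the right panel and Rasgrf1 (-3.87) ends it.

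Between the luminal classes, 9 of 35 members were called higher in GFP-positive and YFP-negative cells and 10 lower, or 54.3%, against 57.1% of all genes tested (29.6% higher, 27.4% lower). Peg3 ran from 23.9 to 189 CPM with a median of 60.9 in the 8 GFP-positive and YFP-negative libraries, and from 0.923 to 15.5 with a median of 2.64 in the 8 others (log2 4.45 ± 0.25, adjusted p = 1.05e-09). Cd81 ran from 323 to 756 CPM with a median of 504, and in the others from 82.0 to 143 with a median of 111 (2.17 ± 0.06, adjusted p = 3.97e-14). Neither gene's groups overlap. Rasgrf1 was the reverse, at 2.30 to 10.9 CPM with a median of 5.67, and in the others 22.2 to 208 with a median of 94.2 (-3.87 ± 0.31, adjusted p = 6.15e-08). Its highest values, 184 and 208 CPM, were in YFP-positive ducts, beside 110 and 95.1 in YFP-positive TEBs. Phlda2, which restrains placental growth, averaged 1.26 ± 0.715 CPM in GFP-positive and YFP-negative cells and 4.44 ± 1.01 in the others (SD, n = 8 each; -1.99 ± 0.27, adjusted p = 6.42e-06).

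Further lists of the same biology give context. Of 31 tested imprinted genes outside the 38, 8 were called higher and 9 lower in basal TEBs (54.8%, against 43.6% of all genes), and 5 higher and 7 lower in luminal TEBs (38.7%, against 38.7%). Zdbf2, a paternally expressed zinc-finger gene, averaged 1.37 CPM in basal TEBs and 12.1 in ducts (log2 -3.19 ± 0.55, adjusted p = 0.000176), and 0.527 CPM in luminal TEBs and 3.55 in ducts (-2.19 ± 0.59, adjusted p = 0.00716). Slc38a4, an amino acid transporter gene, averaged 40.9 CPM in basal TEBs and 6.66 in ducts (2.91 ± 0.80, adjusted p = 0.00916). A list of imprint maintenance and DNA methylation genes, the Tet genes among them, had 24 tested members. In basal TEBs 11 were called higher and 5 lower (66.7%, against 43.6% of all genes). In luminal TEBs 12 were called higher and 7 lower (79.2%, against 38.7%). Several of these are also genes of replicating cells: Uhrf1 averaged 162 CPM in basal TEBs and 24.7 in ducts (2.71 ± 0.58), and the maintenance methyltransferase Dnmt1 averaged 240.2 CPM in basal TEBs and 92.8 in ducts (1.38 ± 0.13).

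In a list of insulin-like growth factor genes, 3 of 15 tested were called higher and 6 lower in basal TEBs (60%, against 43.6% of all genes), and 2 higher and 6 lower in luminal TEBs (53.3%, against 38.7%). The binding protein gene Igfbp5 averaged 2392 CPM in basal TEBs and 8668 in ducts (log2 -1.87 ± 0.41, adjusted p = 0.00197), and 2322 CPM in luminal TEBs and 8664 in ducts (-2.62 ± 0.30, adjusted p = 1.23e-05). Igfbp7 averaged 19.7 CPM in basal TEBs and 153.7 in ducts (-3.19 ± 0.25), and Igfbp4 averaged 538.8 CPM in basal TEBs and 131.1 in ducts (2.05 ± 0.59, adjusted p = 0.0117). Hmga2, a chromatin protein gene active in growing tissues, averaged 4.03 CPM in basal TEBs and 1.13 in ducts (2.52 ± 0.60, adjusted p = 0.0031), and 1.35 CPM in luminal TEBs and 0.0847 in ducts. Igf2 itself stayed under 4 CPM in every library.

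The remaining tested members were called in no TEB contrast averaged over a compartment. Ube3a, a ubiquitin ligase, ran from 67.0 to 113 CPM over all 24 libraries and was called in no population; Snhg14 on its other strand, with 5304 counts over all libraries, shares part of its exons. Phlda2 was called lower in YFP-negative TEBs alone, at 0.703 and 0.185 CPM, against 2.03 and 2.26 in ducts (-2.24 ± 0.56, adjusted p = 0.0106), and the call was lost without replicate 2 of those TEBs, 1 of the libraries with keratinocyte transcripts. Ascl2 and Asb4 stayed under 2 CPM everywhere, and Dio3 and Rtl1 under 1 CPM.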

How the data were processed

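The authors deposited raw read counts per gene and library; the table of the whole series holds the same counts as the single files (0 values differ). The submitters' processing notes name featureCounts and mm10. For the aligner, the annotation and the strand setting the sources used here give nothing. Libraries held between 31.3 and 52.5 counts in units of 1e6. The reads carry no molecular identifiers, so a floor of 3 counts covers counting error only. No pair of replicates agreed within sampling noise.

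The filter filterByExpr (12 groups, at least 10 counts, total of at least 15) left 18109 genes. A robust quasi-likelihood fit with 1 mean per group (edgeR 4.0.16, R 4.3.3, TMM scaling, 12 residual degrees of freedom) used all 24 libraries and was checked on simulated data. Every adjusted p is from its F-test, Benjamini-Hochberg adjusted over all genes tested. Averages over groups are on the log2 scale, so they need not equal ratios of mean CPM; the SE is the log2 fold change divided by the square root of F. In contrasts averaging a group without counts some members had no usable fit (up to 6 of 35) and were counted as not called, and medians over members are given for basal contrasts alone. DESeq2 1.42.0 and limma 3.58.1 served as alternatives. Exon overlaps come from GENCODE M21, promoters from RefSeq GRCm38.p6.

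Members, lists and comparisons were chosen with earlier results of these data known. Members called in a compartment mean or in at least 3 populations are given by library; of other lists at most 5 genes per contrast are named, those with the largest changes. The comparisons between single luminal populations and between models were added after seeing the data. Further marker lists (adipocyte, endothelial, pericyte, immune, muscle, nerve) summed to at most 90.0, 117.7, 415, 38.7, 8.29 and 470.4 CPM in any library. Most of the luminal pericyte sum was Notch3, which averaged 285 CPM in luminal TEBs and 307 in luminal ducts. Pdgfrb of that list averaged 1.18 and 0.388 CPM there, and 9.29 in basal TEBs and 22.7 in basal ducts. The immune and adipocyte sums were lower in basal TEBs than in basal ducts without overlap, although the adipocyte genes did not move alike, as given above.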

Additional observations from a re-analysis of the deposited data

Results flagged for a closer look

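The values below are tested differences of the TEB over duct change between cell populations (log2, edgeR's quasi-likelihood test with Benjamini-Hochberg adjustment over all genes, adjusted p under 0.05).

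Between basal and luminal cells, the TEB effect was higher in basal cells for Mest (4.68), Sgce (2.81), Grb10 (2.53), Cdkn1c (2.40), Impact (0.84) and Peg13 (0.72), and lower for Igf2 (-5.18), H19 (-5.10), Plagl1 (-1.11) and Tssc4 (-0.82). The Igf2 and H19 sizes include a luminal group with 0 counts and depend on the prior count. Igf2 was called lower over the basal mean and in no single population, basal or luminal.

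Between the GFP-positive and YFP-negative class and the GFP-negative and YFP-positive class of luminal cells, the TEB effect was higher for Peg3 (3.84) and lower for Peg13 (-1.15) and Cd81 (-0.76). Peg3 was above its duct level in TEBs of the first class and below it in the second.

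Between GFP-negative and YFP-positive cells, which stand in the same class but come from different mouse models, the TEB effect of Grb10 differed by 2.22. This comparison was chosen after seeing the data.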

How the results depend on the processing

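Of 141 calls of members in the 12 planned comparisons, 88 held under all 32 alternatives, and 0 changed sign. Alternatives that kept every library, or left out the 2 with keratinocyte transcripts, lost between 1 and 17 calls, and fits without 1 library lost between 5 and 20. The main fit did not pair replicates. Deviations of TEB and duct libraries with the same replicate number correlated weakly but positively (0.0387 to 0.102, 2 of 6 over 0.1). Within 1 mouse model the median correlation between groups was 0.0458 (0.00337 to 0.152), and between models it was -0.00734 (-0.0742 to 0.248). Proliferation sums in the Elf5-model ducts were 583.6, 661.7 and 590.3 CPM in replicate 1 and 272.7, 232.3 and 291.8 in replicate 2. In all PR-cre-model ducts replicate 1 had the lower sum. Whether replicate numbers mark shared preparations was not tested. The replicate block kept 135 of the 141 calls. It moved 1 count of members by over 1.5 times: the class difference of the TEB effect had 2 higher, against 1 without the block.

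Counts of members that moved by over 1.5 times were as follows; the cause was not tested. Without the 2 libraries with keratinocyte transcripts, 5 members were lower in PR-cre-model basal TEBs (2 with them), 1 was higher in YFP-positive TEBs (0), 3 were higher over the luminal mean (5), and the class difference of the TEB effect had 4 higher and 4 lower (1 and 2). With limma voom, 5 were lower in PR-cre-model basal TEBs, 2 higher in GFP-negative TEBs (4), 1 higher in YFP-positive TEBs, and 2 higher in the class difference. With DESeq2, 7 were higher in YFP-negative TEBs (3), and the class difference had 3 higher and 4 lower. With upper quartile scaling, 10 had a higher TEB effect in basal than luminal cells (6) and 2 were higher in the class difference, as also with a minimum of 1 CPM in 2 libraries.

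Leaving out 1 library at a time, members called higher and lower ran from 4 to 7 and 1 to 6 in Elf5-model basal TEBs, 3 to 9 and 1 to 4 in PR-cre-model basal TEBs, 1 to 4 and 3 to 6 in GFP-positive, 0 to 4 and 5 to 7 in YFP-negative, 0 to 4 and 3 to 7 in GFP-negative, and 0 to 1 and 2 to 6 in YFP-positive TEBs. They ran from 7 to 10 and 4 to 8 over the basal mean, 3 to 8 and 6 to 9 over the luminal mean, 5 to 10 and 4 to 5 for the basal minus luminal difference, 1 to 2 and 2 to 5 for the class difference, 19 to 24 and 7 to 9 for basal over luminal, and 7 to 11 and 7 to 10 between luminal classes. A lone library left in a group was assumed to vary like the others.

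No scaling moved the median of all genes by over 0.1. The higher share of all calls, 47.8% in GFP-negative and 58.6% in YFP-positive cells, was 36.8% and 44.7% with upper quartile scaling, 47.7% in YFP-positive cells with DESeq2, and 58.6% in GFP-negative cells with limma voom. Groups of 2 libraries and counts near the floor limit Igf2, Mirg, Peg10, Peg12, Dlk1 and Zim1 most, and reads do not tell the parental copies, or opposite strands, apart.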
